A study of Mus musculus with 35 samples.

Results

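The 37 genes described here encode proteins of the sarcomere, the contractile unit of striated muscle, and of the Z-disc, the plate that anchors its actin filaments and joins neighbouring units. They were chosen by name, and all 37 of 37 were found among the 27012 genes of the deposited table, with a value above 0 in each of the 35 libraries. By role, 5 belong to the thick filament and its kinases, 7 to the thin filament, 4 to titin and the M-band, 12 to the Z-disc, 6 to the filament linkers, Xin repeat proteins and small heat shock proteins, and 3 to the chaperones and ligases of myosin assembly. RNA was taken from the heart apex of C57Bl/6/FVB mice operated on at 6 weeks of age and killed 3 days later. The operation was transaortic constriction (TAC), which narrows the aorta with a suture and raises the pressure that the left ventricle works against, or a sham operation. IRS1KO mice carried a floxed Irs1 gene with alphaMHC-Cre (TAC, n = 6; sham, n = 6), IRS2KO mice carried a floxed Irs2 gene with alphaMHC-Cre (TAC, n = 6; sham, n = 6), and WT mice carried the floxed Irs2 gene without Cre (TAC, n = 5; sham, n = 6). The alphaMHC promoter is that of Myh6 and drives Cre in cardiomyocytes, so Irs1 and Irs2 of the other heart cells are left in place. No group had Cre alone, and none had the floxed Irs1 gene without Cre, so Cre and the deletion cannot be told apart. IRS1KO and WT mice carried different floxed genes, so between them the floxed line cannot be told apart from the deletion either. Whether every library had its own mouse is not stated, so a p-value here reflects only how far libraries of a group lie apart.

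Force in a cardiomyocyte comes from myosin heads of the thick filament pulling on actin of the thin filament, and is switched by calcium through the troponins and tropomyosin. Titin spans from the Z-disc to the M-band as a spring, and alpha-actinin crosslinks actin at the Z-disc. Desmin, filamin C and the Xin repeat proteins tie the Z-disc to its neighbours and to the cell border, and the small heat shock proteins Cryab and Hspb7 bind such filaments and their unfolded stretches. Pressure-loaded hearts are known for a return of fetal isoforms of contractile proteins.

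The libraries held 11707111 to 14609467 reads in genes, of which the 37 genes took 5.64% to 7.55%. Values below are normalized counts, the reads of a gene divided by a scaling factor of the library. Irs1 stood at 0 to 80.3 in IRS1KO TAC hearts and at 135 to 221 in WT TAC hearts, and at 0 to 43.8 in IRS1KO sham hearts and 172 to 309.8 in WT sham hearts. Replicate 1 of both IRS1KO groups was listed at 0, and with both of these libraries left out the 32 calls on the 37 genes in the IRS1KO comparisons kept their side of the threshold. Irs2 stood at 78.6 to 196 in IRS2KO TAC hearts and at 129.8 to 303 in WT TAC hearts, and at 98.1 to 138 in IRS2KO sham hearts and 93 to 564 in WT sham hearts, and neither difference passed the test (limma adjusted p = 0.695 after TAC and 1 in sham). The share of reads from the mitochondrial genome averaged 19.5% in IRS1KO TAC, 21.1% in IRS2KO TAC and 23.4% in WT TAC libraries, against 28.6%, 30.4% and 29.9% in the sham libraries of the same genotypes.

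In sham hearts the 37 genes spanned a wide range of levels. Per kilobase of merged exons, the regulatory light chain Myl2 stood highest among them in WT sham hearts, at 48732 normalized counts per kb (libraries 43201 to 53443), and the essential light chain Myl3 came next at 30538 (28745 to 33264). The libraries of these neighbours did not overlap. Troponin C (Tnnc1) followed at 21999 normalized counts per kb and telethonin (Tcap), the cap on the Z-disc end of titin, at 17793. Synpo2l stood lowest at 314 per kb, next to nebulette (Nebl) at 350.1 and palladin (Palld) at 405, and the libraries of Synpo2l and Nebl overlapped. Near the lower end, Xirp1 at 527, Mylk4 at 527 and Lmod3 at 523 per kb did not differ beyond the spread of their libraries. After TAC Myl2 remained the highest by mean in WT hearts, at 26051 per kb. By mean Tnnc1 stood above Myl2 in the knockouts, with Tnnc1 at 20742 and Myl2 at 17791 per kb in IRS1KO TAC hearts, and Tnnc1 at 22741 and Myl2 at 20714 in IRS2KO TAC hearts. The libraries of Tnnc1 and Myl2 overlapped in every TAC group, so no change of rank is shown. Mylk4 became the lowest of the 37 genes, at 69 normalized counts per kb in IRS1KO, 93.2 in IRS2KO and 111 in WT TAC hearts, while Xirp2 stood at 1529.8, 2351 and 1725 per kb, against 367, 406 and 451 per kb in the sham hearts of the same genotypes. Merged exons include those of rare transcripts, which lowers the value per kb of genes with many annotated forms.

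TAC was compared with sham within each genotype to ask what 3 days of pressure overload did to these transcripts. In the grouping by role, which was made with earlier results of these data known, all 6 filament linkers, Xin repeat and small heat shock genes rose in every genotype. All 5 genes of the thick filament and its kinases fell in every genotype, while the Z-disc genes moved both ways. With limma on log2(value + 1) and p-values adjusted over the 13695 genes tested (Benjamini-Hochberg, threshold 0.05), 9 of the 37 rose and 19 fell in IRS1KO hearts, where 32.4% of all genes tested were called higher and 31.7% lower. In IRS2KO hearts 10 rose and 19 fell, against 31.3% and 31.1% of all genes. In WT hearts 10 rose and 17 fell, against 28.3% and 26.6%. The share of these genes that rose was thus near that of all genes, and the share that fell was above it, at 51.4% in IRS1KO, 51.4% in IRS2KO and 45.9% in WT hearts. Their median log2 fold change was -0.28 in IRS1KO, -0.28 in IRS2KO and -0.23 in WT hearts, while that of all genes lay at -0.01 in each.

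The split between rises and falls depended on the scaling. When every library was set to the same total, the median of all genes moved to 0.30 in IRS1KO, 0.33 in IRS2KO and 0.24 in WT hearts, and 13 of the 37 rose and 11 fell in IRS1KO, 15 rose and 11 fell in IRS2KO, and 12 rose and 9 fell in WT hearts. All genes tested were then called higher in 52.4%, 54.3% and 45.4% and lower in 15.8%, 13.8% and 11.6% for the same genotypes. With equal totals of nuclear reads, which leave out mitochondrial reads, 11 of the 37 rose and 16 fell in IRS1KO, 11 and 16 in IRS2KO, and 10 and 12 in WT hearts. Of the 13695 genes tested, 5633 were then higher and 3205 lower in IRS1KO, 5679 and 2915 in IRS2KO, and 4940 and 2359 in WT hearts. Under the deposited scaling 9 genes rose in all 3 genotypes (Synpo2l, Pdlim5, Smpx, Des, Flnc, Xirp1, Xirp2, Cryab and Hspb7), and each of them kept its call under every alternative and with any library left out. A further 14 genes fell in all 3 genotypes, and 9 of these (Myl2, Myl3, Mylk3, Mylk4, Lmod3, Myom2, Cmya5, Tcap and Myoz2) kept their calls in the same way, whereas Mybpc3, Tnnt2, Ldb3, Unc45b and Trim54 each lost the call in at least 1 genotype with equal totals. Another 9 genes passed the test in some genotypes, and 5 (Tnnc1, Myom1, Actn2, Mypn and Palld) in none.

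Of these 84 calls over the 3 genotypes, 11 on 9 genes were lost when a single library was left out, all in the model of all 6 groups (limma). Tnnt2 in WT hearts rested on TAC replicate 3 (limma adjusted p = 0.0923 without it), and Smyd1 in IRS1KO hearts on TAC replicate 2 (0.0507 without it). Csrp3 was lost in IRS2KO hearts without TAC replicate 2 (adjusted p = 0.0986, limma) or sham replicate 3 (0.0551), and in WT hearts without TAC replicate 1 (0.0884) or 5 (0.104). Tmod1 was lost in WT hearts without TAC replicate 1, 3 or 5 (adjusted p 0.0565 to 0.101, limma). The calls of Mybpc3 in WT (TAC replicates 1, 3 and 5, sham replicates 2, 4 and 5; adjusted p 0.0566 to 0.152) and in IRS1KO hearts (TAC replicates 1, 4 and 6, sham replicates 3, 5 and 6; 0.0509 to 0.0781) were lost without any 1 of those libraries (limma). So were those of Ttn in WT (TAC replicates 1 and 5, sham replicates 2 to 6; 0.0506 to 0.173) and Ldb3 in WT hearts (TAC replicates 1, 3 and 5, sham replicates 1, 2 and 4; 0.0504 to 0.102). Nexn in IRS1KO (TAC replicates 1, 2, 4 and 6, sham replicates 3 to 6; 0.05 to 0.182) and Unc45b in IRS2KO hearts (TAC replicates 1, 2, 3 and 6, sham replicates 1, 2 and 5; 0.0538 to 0.113) were lost in the same way.

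**Figure D1:**
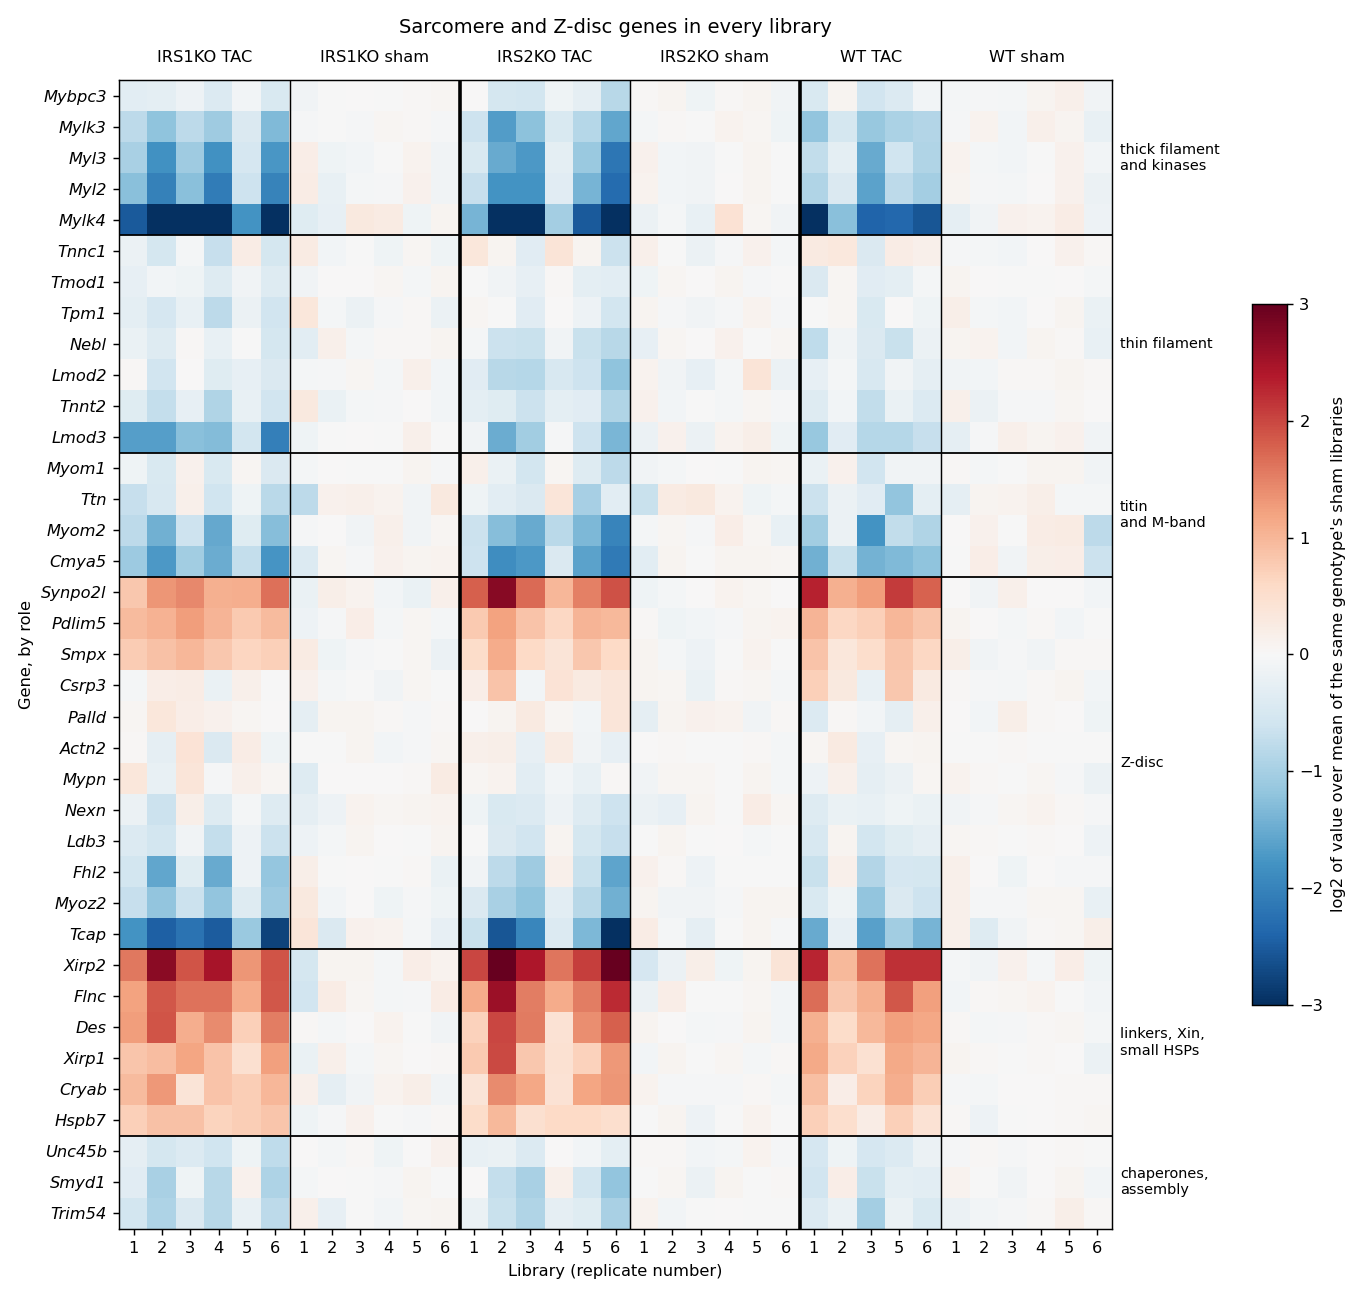
Each column is a library (replicate numbers below) and each row a gene, ordered by role and, within a role, by its mean log2 fold change; the colour gives log2 of the value over the mean of the sham libraries of the same genotype, and values beyond the ends of the bar take the end colours. The 6 linker, Xin repeat and small heat shock genes are red in every TAC library, and Mylk4 and Tcap hold the deepest blue.

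Markers of cell types moved with these changes. Of 14 cardiomyocyte markers that are not among the 37 genes, 12 fell in each genotype and 1, the cardiac actin Actc1, rose in IRS2KO hearts (log2 fold change 0.28, a call lost without at least 1 library, highest limma adjusted p = 0.068). Their summed level was 416169 to 787703 in IRS1KO TAC and 1023880 to 1135340 in IRS1KO sham libraries, 432036 to 988015 in IRS2KO TAC and 1026550 to 1113030 in IRS2KO sham libraries, and 540743 to 959502 in WT TAC and 1031230 to 1154560 in WT sham libraries. Of 15 macrophage and monocyte markers 14 were tested and all 14 rose in each genotype, with summed levels of 9881 to 26529 in WT TAC and 3817 to 4708 in WT sham libraries. Of 12 fibroblast markers 8 rose and 2 fell in IRS1KO, 8 and 2 in IRS2KO, and 9 and 1 in WT hearts, with sums of 64329 to 118750 in WT TAC and 28245 to 32589.6 in WT sham libraries. Of 12 endothelial markers 11 fell in IRS1KO, 10 in IRS2KO and 8 in WT hearts. The 12 smooth muscle and pericyte markers, of which 11 were tested and Des is 1, gave 2 rises and 5 falls in IRS1KO, 3 and 6 in IRS2KO, and 3 and 6 in WT hearts. Of 6 neutrophil markers 2 were tested, and 1 rose in IRS1KO, 1 in IRS2KO and 2 in WT hearts. Of 6 atrial markers 3 were tested, and 1 rose and 1 fell in each genotype. The 12 skeletal muscle markers, of which 3 were tested, gave 1 rise and 0 falls in each knockout and 1 rise and 1 fall in WT hearts. They summed to at most 332 in any library, and Myh1, Myh2, Actn3, Pvalb and Ryr1 averaged under 10 in every group. The part of other cells in the changes below was not tested. In whole tissue, fewer cardiomyocytes and less of a transcript in each cardiomyocyte cannot be told apart.

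Stretches of DNA just upstream of an annotated start of 4 genes are shown first, since each carries a match to the binding motif of the muscle factor MEF2. Xirp2 and Synpo2l rose most in their roles, Mylk4 fell most, and Fhl2 was called between genotypes after TAC. The windows hold the 250 bases upstream of an annotated start (RefSeq, GRCm38.p6), and 31 of the 37 genes had 1 or more, 45 windows in all. Matches were searched on both strands. A MEF2 match was present in 8 of the 45 windows (17.8%) and in 2.92% of all 32851 windows of the table. These 8 windows belong to 7 genes: Xirp2 and Synpo2l, which rose in every genotype, Mylk4, Mybpc3 and Myoz2, which fell in every genotype, and Fhl2 and Ttn, which fell in some. A CArG match, the motif of serum response factor, was found in 7 windows (15.6%, against 1.47% of all windows) of Fhl2, Ldb3, Myl3, Myom1 and Nebl, and the M-CAT motif of TEAD factors, CATTCC, in 11 windows (24.4%, against 12.6%). A match describes these letters and is no evidence of binding. Most of the Fhl2 window, with its match, lies inside the wider annotated span of Fhl2 (chromosome 1, 43123074 to 43196984, minus strand), which begins further upstream. The Xirp2 window lies at chr2:67445752-67446001 on the plus strand, the Synpo2l window shown, 1 of 2 of that gene with a match, at chr14:20668355-20668604 on the minus strand, the Mylk4 window at chr13:32783965-32784214 on the minus strand and the Fhl2 window at chr1:43196762-43197011 on the minus strand, and each is given 5′ to 3′ along its gene with the MEF2 match in capitals.
Xirp2: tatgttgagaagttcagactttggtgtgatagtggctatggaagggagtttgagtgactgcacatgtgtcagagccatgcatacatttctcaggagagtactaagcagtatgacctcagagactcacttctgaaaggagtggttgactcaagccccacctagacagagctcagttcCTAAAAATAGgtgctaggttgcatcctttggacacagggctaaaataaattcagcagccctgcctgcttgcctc
Synpo2l: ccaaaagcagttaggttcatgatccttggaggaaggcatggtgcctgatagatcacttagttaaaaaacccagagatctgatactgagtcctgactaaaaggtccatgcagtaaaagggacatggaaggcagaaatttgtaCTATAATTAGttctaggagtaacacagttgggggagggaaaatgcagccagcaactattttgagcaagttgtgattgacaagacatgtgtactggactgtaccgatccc
Mylk4: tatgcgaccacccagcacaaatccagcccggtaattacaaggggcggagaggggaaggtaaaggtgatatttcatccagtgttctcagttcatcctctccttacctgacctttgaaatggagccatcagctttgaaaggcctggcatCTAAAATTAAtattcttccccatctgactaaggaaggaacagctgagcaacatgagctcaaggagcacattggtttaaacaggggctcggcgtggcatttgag
Fhl2: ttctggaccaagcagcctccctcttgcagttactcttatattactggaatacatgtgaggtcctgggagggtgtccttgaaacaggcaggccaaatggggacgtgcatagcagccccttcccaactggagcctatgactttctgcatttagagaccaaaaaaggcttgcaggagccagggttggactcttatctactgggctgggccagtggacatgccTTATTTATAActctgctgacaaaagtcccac
The match begins 74 bases upstream of the start in Xirp2, 109 in Synpo2l, 103 in Mylk4 and 31 in Fhl2.

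The Xin repeat protein Xirp2 (chromosome 2, 67446002 to 67526614, plus strand in GRCm38) binds actin at the Z-disc and at the intercalated disc, where cardiomyocytes join. Xirp2 stood at 11042 at the lowest, 16271 at the median and 28842 at the highest of the IRS1KO TAC libraries, against 3062 at the lowest, 4659.8 at the median and 5035 at the highest of the IRS1KO sham libraries. In IRS2KO hearts Xirp2 had 14813 at the lowest, 23449 at the median and 46579.7 at the highest after TAC, against 3407 at the lowest, 4787 at the median and 6396 at the highest after sham. In WT hearts Xirp2 had 26228, 10643, 16788, 24756 and 24885 in TAC replicates 1, 2, 3, 5 and 6, against 4931 at the lowest, 5215 at the median and 6165 at the highest of the sham libraries. Every TAC library lay above every sham library of its genotype, and the mean was 4.16-fold higher in IRS1KO, 5.8-fold higher in IRS2KO and 3.82-fold higher in WT hearts. The log2 fold change was 2.00 in IRS1KO hearts (SE 0.24, adjusted p = 3.41e-08), 2.44 in IRS2KO hearts (SE 0.24, adjusted p = 1.13e-09) and 1.86 in WT hearts (SE 0.25, adjusted p = 5.32e-07; limma). WT TAC replicate 2, IRS1KO TAC replicate 5 and IRS2KO TAC replicate 4 were the lowest of their groups.

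Filamin C (Flnc, chromosome 6, 29433256 to 29461883, plus strand) crosslinks actin between the Z-disc and the cell membrane. Flnc stood at 10830.2 at the lowest, 15568 at the median and 18446 at the highest of the IRS1KO TAC libraries, against 3396 at the lowest, 5086 at the median and 5924 at the highest of the IRS1KO sham libraries. In IRS2KO hearts Flnc had 11511 at the lowest, 15529 at the median and 31412 at the highest after TAC, against 4699.8 at the lowest, 5280.1 at the median and 6174 at the highest after sham. In WT hearts Flnc had 16937, 9388, 11162, 19423 and 12426 in TAC replicates 1, 2, 3, 5 and 6, against 5012 at the lowest, 5359 at the median and 5723 at the highest of the sham libraries. Again no TAC library overlapped a sham library of the same genotype. On the log2 scale TAC over sham gave 1.57 in IRS1KO hearts (SE 0.19, adjusted p = 4.98e-08), 1.69 in IRS2KO hearts (SE 0.19, adjusted p = 2.1e-08) and 1.33 in WT hearts (SE 0.20, adjusted p = 3.69e-06; limma). Desmin (Des, chromosome 1, 75360329 to 75368579, plus strand), the intermediate filament that wraps the Z-disc, stood at 39616 at the lowest, 60679 at the median and 89582 at the highest of the IRS1KO TAC libraries, against 22509 at the lowest, 24153 at the median and 25826 at the highest of the IRS1KO sham libraries. In IRS2KO hearts Des had 31315 at the lowest, 64694 at the median and 93102 at the highest after TAC, against 22079 at the lowest, 22984 at the median and 24741 at the highest after sham. In WT hearts Des had 49022, 34536, 45993, 55492 and 52421 in TAC replicates 1, 2, 3, 5 and 6, against 22570.1 at the lowest, 23552 at the median and 24524 at the highest of the sham libraries. Its mean was 2.57-fold higher in IRS1KO, 2.66-fold higher in IRS2KO and 2.02-fold higher in WT hearts, with no overlap of libraries (limma adjusted p = 3.8e-07, 5.45e-07 and 8.57e-05 in the same order). Smooth muscle cells also express Des.

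The other 3 genes of this role rose by less. Xirp1, the first of the Xin repeat proteins, averaged 5546 ± 1012 in IRS1KO TAC and 2897 ± 233 in IRS1KO sham hearts, and its log2 fold change was 0.92 in IRS1KO, 1.00 in IRS2KO and 0.89 in WT hearts. The annotated span of Xirp1 overlaps that of the macrophage receptor gene Cx3cr1 on the same strand, and Cx3cr1 averaged 257 in IRS1KO TAC, 265 in IRS2KO TAC and 208 in WT TAC hearts. Cryab, the alphaB-crystallin chaperone, had log2 fold changes of 0.88 in IRS1KO, 0.98 in IRS2KO and 0.72 in WT hearts. Its neighbour Hspb2 overlaps it on the other strand and also rose in each genotype, to a mean of 398 in WT TAC hearts, against 294 in WT sham hearts. Hspb7, a small heat shock protein of heart and skeletal muscle, had log2 fold changes of 0.79 in IRS1KO, 0.62 in IRS2KO and 0.52 in WT hearts, the smallest rises of the 6. All 3 were without overlap between TAC and sham libraries in every genotype.

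**Figure D2:**
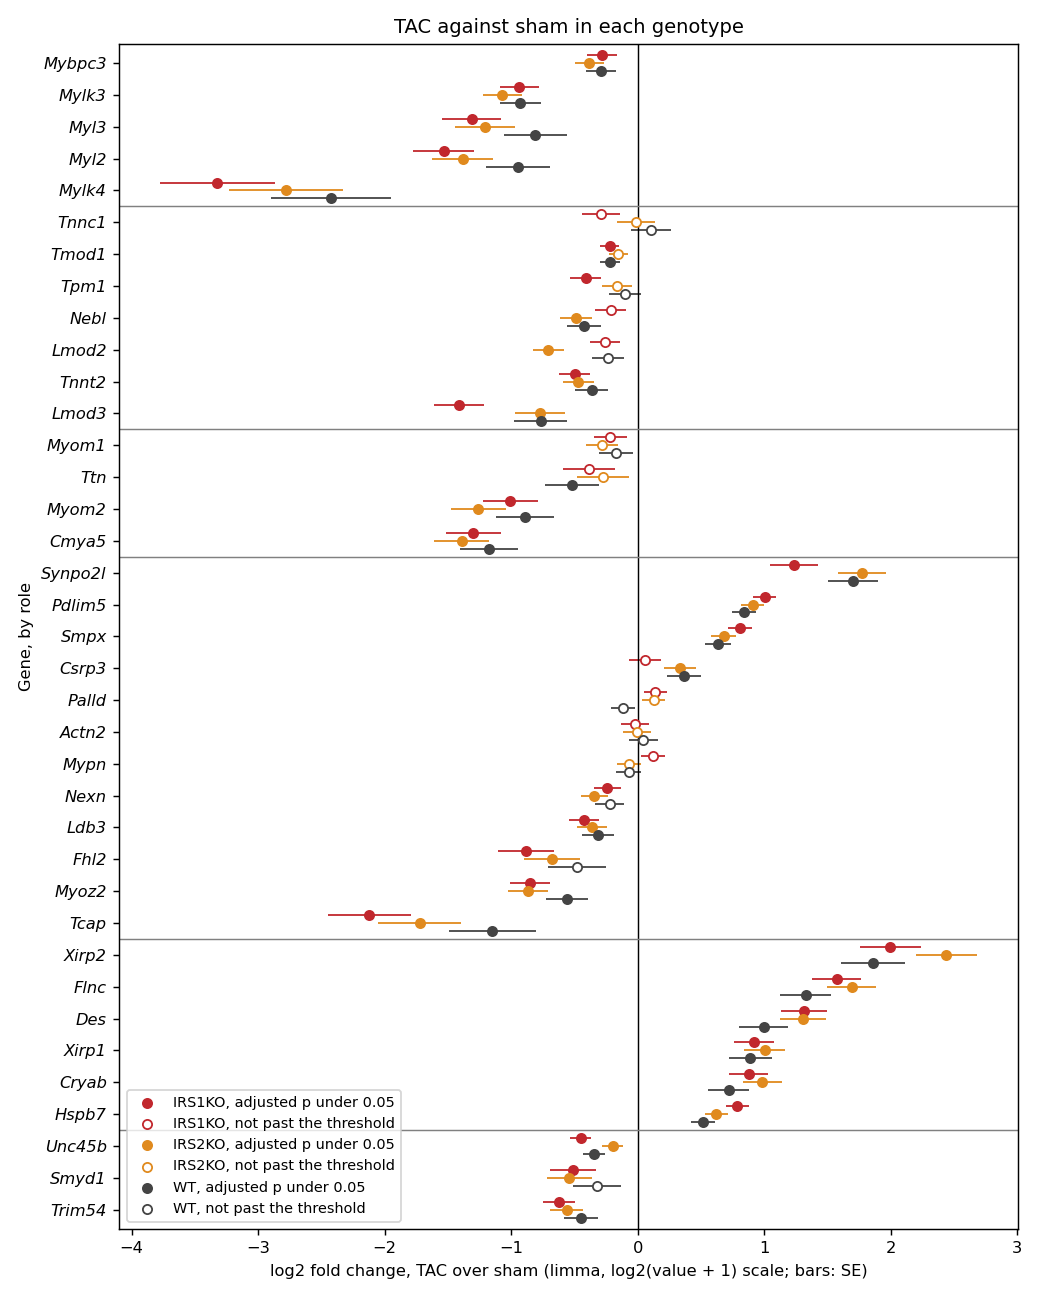
Points give the limma log2 fold change of TAC over sham for each gene in IRS1KO (red), IRS2KO (orange) and WT hearts (dark grey), with bars for the SE, filled where the adjusted p was under 0.05; horizontal lines separate the roles in the order of the heat map. The linker genes and Synpo2l, Pdlim5 and Smpx lie to the right in all 3 genotypes, and the thick filament genes to the left.

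Myosin light chain kinase family member 4 (Mylk4, chromosome 13, 32700834 to 32783954, minus strand) fell further than any other of the 37 genes. Mylk4 stood at 153 at the lowest, 391 at the median and 1241 at the highest of the IRS1KO TAC libraries, against 3332 at the lowest, 4230.4 at the median and 5242 at the highest of the IRS1KO sham libraries. In IRS2KO hearts Mylk4 had 126 at the lowest, 505 at the median and 1679.6 at the highest after TAC, against 2889 at the lowest, 3188 at the median and 4547 at the highest after sham. In WT hearts Mylk4 had 336, 1703, 763, 795 and 681 in TAC replicates 1, 2, 3, 5 and 6, against 3372 at the lowest, 4076 at the median and 4702 at the highest of the sham libraries. No TAC library reached the lowest sham library of its genotype, and the TAC libraries differed widely among themselves. The mean was 8.09-fold lower in IRS1KO, 4.72-fold lower in IRS2KO and 4.73-fold lower in WT hearts. This came to a log2 fold change of -3.32 in IRS1KO hearts (SE 0.45, adjusted p = 2.42e-07), -2.78 in IRS2KO hearts (SE 0.45, adjusted p = 4.45e-06) and -2.42 in WT hearts (SE 0.47, adjusted p = 9.46e-05; limma).

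Myl2 (chromosome 5, 122100951 to 122113472, plus strand), the ventricular regulatory light chain, was among the most abundant transcripts and fell in each genotype. Myl2 stood at 21848 at the lowest, 31271 at the median and 61303 at the highest of the IRS1KO TAC libraries, against 80973 at the lowest, 90657 at the median and 109418 at the highest of the IRS1KO sham libraries. In IRS2KO hearts Myl2 had 19175 at the lowest, 31693 at the median and 74550 at the highest after TAC, against 88178 at the lowest, 94053 at the median and 100692 at the highest after sham. In WT hearts Myl2 had 50585, 70646, 31385, 54757 and 46624 in TAC replicates 1, 2, 3, 5 and 6, against 84243 at the lowest, 94425 at the median and 104214 at the highest of the sham libraries. The groups did not overlap in any genotype. As a log2 fold change TAC over sham was -1.54 in IRS1KO hearts (SE 0.24, adjusted p = 2.31e-06), -1.38 in IRS2KO hearts (SE 0.24, adjusted p = 1.23e-05) and -0.95 in WT hearts (SE 0.25, adjusted p = 0.00234; limma). Its partner Myl3, the essential light chain, had log2 fold changes of -1.31 in IRS1KO, -1.21 in IRS2KO and -0.81 in WT hearts, also without overlap. Mylk3, the cardiac kinase that phosphorylates Myl2, had log2 fold changes of -0.94 in IRS1KO, -1.07 in IRS2KO and -0.93 in WT hearts, and its libraries did not overlap either. Cardiac myosin-binding protein C (Mybpc3) fell least, with log2 fold changes of -0.28 in IRS1KO, -0.38 in IRS2KO and -0.29 in WT hearts, and its libraries overlapped in every genotype. With equal totals its log2 fold change was 0.03 in IRS1KO, -0.04 in IRS2KO and -0.03 in WT hearts, past the threshold in none.

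Of the 7 thin filament genes none rose and 4 fell in each genotype, though not the same 4. Lmod3, a leiomodin that nucleates actin filaments, moved most. It averaged 672 ± 259 in IRS1KO TAC and 1698 ± 109 in IRS1KO sham hearts, 717 ± 305 in IRS2KO TAC and 1142 ± 127 in IRS2KO sham hearts, and 688 ± 142 in WT TAC and 1159 ± 128 in WT sham hearts (SD). The log2 fold changes were -1.41 in IRS1KO, -0.77 in IRS2KO and -0.77 in WT hearts. Troponin T (Tnnt2) also fell in every genotype, with log2 fold changes of -0.50 in IRS1KO, -0.47 in IRS2KO and -0.36 in WT hearts. The remaining calls were Tpm1 (alpha-tropomyosin) and Tmod1 (which caps the pointed end of actin) in IRS1KO, Lmod2 (the main cardiac leiomodin) and Nebl in IRS2KO, and Tmod1 and Nebl in WT hearts. Lmod2 had log2 fold changes of -0.26 in IRS1KO, -0.71 in IRS2KO and -0.23 in WT hearts, of which only that in IRS2KO hearts passed in the model of all 6 groups. With only the WT TAC and sham groups fitted, Lmod2 was also called lower in WT hearts. Every thin filament call but those of Lmod3 and of Lmod2 was lost with equal totals, and Tmod1 then stood above sham in each genotype (0.09, 0.18 and 0.04 in IRS1KO, IRS2KO and WT hearts on the log2 scale).

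Tnnc1, the calcium sensor of the thin filament, passed the test in no genotype. Tnnc1 stood at 16028 at the lowest, 20334 at the median and 29979.8 at the highest of the IRS1KO TAC libraries, against 23672 at the lowest, 25068 at the median and 30495 at the highest of the IRS1KO sham libraries. In IRS2KO hearts Tnnc1 had 14808 at the lowest, 24647 at the median and 30125 at the highest after TAC, against 20445 at the lowest, 22779 at the median and 25853 at the highest after sham. In WT hearts Tnnc1 had 27556, 28494, 17036, 26566 and 25416 in TAC replicates 1, 2, 3, 5 and 6, against 21478 at the lowest, 22764 at the median and 24933 at the highest of the sham libraries. The groups overlapped in each genotype, and WT TAC replicate 3 stood apart below its group. The log2 fold change was -0.29 in IRS1KO hearts (SE 0.15, adjusted p = 0.0894), -0.01 in IRS2KO hearts (SE 0.15, adjusted p = 0.956) and 0.11 in WT hearts (SE 0.16, adjusted p = 0.588; limma). With equal totals Tnnc1 was called higher in IRS2KO and WT hearts. Its span overlaps Nisch on the opposite strand.

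Within titin and the M-band, Myom2 and Cmya5 fell in every genotype and Ttn in WT hearts. Cmya5 (chromosome 13, 93040713 to 93144724, minus strand) encodes myospryn, a large protein that binds titin and desmin. Cmya5 stood at 3649 at the lowest, 5171 at the median and 7581 at the highest of the IRS1KO TAC libraries, against 9397 at the lowest, 13252 at the median and 13708 at the highest of the IRS1KO sham libraries. In IRS2KO hearts Cmya5 had 3325 at the lowest, 4541 at the median and 10674 at the highest after TAC, against 11515 at the lowest, 15092 at the median and 15349 at the highest after sham. In WT hearts Cmya5 had 5346, 9051, 5410.3, 5784 and 6260 in TAC replicates 1, 2, 3, 5 and 6, against 9279 at the lowest, 15283 at the median and 16664 at the highest of the sham libraries. No TAC library reached a sham library of its genotype, though WT TAC replicate 2 came near the lowest WT sham library. On the log2 scale TAC over sham gave -1.30 in IRS1KO hearts (SE 0.22, adjusted p = 6.27e-06), -1.39 in IRS2KO hearts (SE 0.22, adjusted p = 2.69e-06) and -1.18 in WT hearts (SE 0.23, adjusted p = 8.68e-05; limma). Myom2, the myomesin of fast fibres and adult heart, averaged 12262 ± 4089 in IRS1KO TAC and 23559.9 ± 1609 in IRS1KO sham hearts, and its log2 fold changes were -1.01 in IRS1KO, -1.26 in IRS2KO and -0.89 in WT hearts. Ttn averaged 58136 ± 14279.9 in WT TAC and 81422 ± 8905 in WT sham hearts (log2 fold change -0.52, limma adjusted p = 0.0401, 0.0544 with edgeR). In the knockouts its adjusted p was 0.0974 in IRS1KO and 0.251 in IRS2KO hearts.

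Myom1, the myomesin present in all striated muscle, passed the test in no genotype. Myom1 stood at 16671 at the lowest, 19170.3 at the median and 25175 at the highest of the IRS1KO TAC libraries, against 22034 at the lowest, 22942 at the median and 24395 at the highest of the IRS1KO sham libraries. In IRS2KO hearts Myom1 had 14642 at the lowest, 20656 at the median and 28298 at the highest after TAC, against 23367 at the lowest, 25377 at the median and 26949 at the highest after sham. In WT hearts Myom1 had 21906, 27378, 16664, 23241 and 23251 in TAC replicates 1, 2, 3, 5 and 6, against 23106 at the lowest, 25142 at the median and 26418 at the highest of the sham libraries. TAC libraries lay on both sides of the sham libraries in each genotype. This came to a log2 fold change of -0.22 in IRS1KO hearts (SE 0.13, adjusted p = 0.141), -0.28 in IRS2KO hearts (SE 0.13, adjusted p = 0.0548) and -0.17 in WT hearts (SE 0.13, adjusted p = 0.293; limma). Its span overlaps Myl12a on the opposite strand.

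The 12 Z-disc genes moved in both directions: 3 rose and 5 fell in IRS1KO, 4 rose and 5 fell in IRS2KO, and 4 rose and 3 fell in WT hearts. Synpo2l (chromosome 14, 20658946 to 20668354, minus strand) encodes CHAP, an actin- and alpha-actinin-binding protein of the Z-disc, and rose most. Synpo2l stood at 3665 at the lowest, 4835 at the median and 6541 at the highest of the IRS1KO TAC libraries, against 1825 at the lowest, 2116 at the median and 2358 at the highest of the IRS1KO sham libraries. In IRS2KO hearts Synpo2l had 2851 at the lowest, 4816 at the median and 9578 at the highest after TAC, against 1317 at the lowest, 1442 at the median and 1540.5 at the highest after sham. In WT hearts Synpo2l had 7266, 3058, 3459.9, 6193 and 4939 in TAC replicates 1, 2, 3, 5 and 6, against 1344 at the lowest, 1463 at the median and 1616 at the highest of the sham libraries. TAC and sham libraries did not overlap. As a log2 fold change TAC over sham was 1.23 in IRS1KO hearts (SE 0.19, adjusted p = 1.65e-06), 1.77 in IRS2KO hearts (SE 0.19, adjusted p = 5.23e-09) and 1.70 in WT hearts (SE 0.20, adjusted p = 4.2e-08; limma). Pdlim5, which links protein kinase C to alpha-actinin, had log2 fold changes of 1.01 in IRS1KO, 0.91 in IRS2KO and 0.84 in WT hearts, and Smpx, a small protein of the costamere, had 0.81 in IRS1KO, 0.68 in IRS2KO and 0.64 in WT hearts, both without overlap. Csrp3, the muscle LIM protein that binds Tcap and alpha-actinin, rose in IRS2KO and WT hearts, with log2 fold changes of 0.05 in IRS1KO, 0.34 in IRS2KO and 0.37 in WT hearts. Neither of its calls held when only the TAC and sham groups of that genotype were fitted (limma adjusted p = 0.0531 in IRS2KO and 0.0523 in WT hearts).

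Telethonin (Tcap, chromosome 11, 98383811 to 98384953, plus strand) fell most among the Z-disc genes. Tcap stood at 2243 at the lowest, 3057 at the median and 7075 at the highest of the IRS1KO TAC libraries, against 11373 at the lowest, 15659 at the median and 19739 at the highest of the IRS1KO sham libraries. In IRS2KO hearts Tcap had 1553 at the lowest, 5316 at the median and 12295 at the highest after TAC, against 13716 at the lowest, 16202 at the median and 19099 at the highest after sham. In WT hearts Tcap had 5937, 14332, 5434, 8169 and 6438 in TAC replicates 1, 2, 3, 5 and 6, against 12802 at the lowest, 17355 at the median and 19016 at the highest of the sham libraries. The groups did not overlap in the knockouts, while in WT hearts replicate 2 after TAC stood within the sham range. The log2 fold change was -2.12 in IRS1KO hearts (SE 0.33, adjusted p = 1.69e-06), -1.72 in IRS2KO hearts (SE 0.33, adjusted p = 3.61e-05) and -1.15 in WT hearts (SE 0.34, adjusted p = 0.00557; limma). The mean was 4.09-fold lower in IRS1KO, 2.63-fold lower in IRS2KO and 2.09-fold lower in WT hearts. Myoz2, the calcineurin-binding calsarcin, had log2 fold changes of -0.85 in IRS1KO, -0.87 in IRS2KO and -0.56 in WT hearts, and Ldb3 (Cypher, a PDZ-LIM protein that binds alpha-actinin) had -0.42 in IRS1KO, -0.36 in IRS2KO and -0.31 in WT hearts. Nexilin (Nexn) fell in the knockouts and lay at -0.22 in WT hearts (adjusted p = 0.0888, limma), where its TAC libraries lay below every sham library. With equal totals Nexn was called in no genotype, and its log2 value was 0.07 in IRS1KO hearts. When only the groups of 1 genotype were fitted, Nexn was called lower in IRS2KO and WT hearts. In IRS1KO hearts its call was then lost (limma adjusted p = 0.118).

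Fhl2, a LIM-only protein that binds titin and relays signals to the nucleus, was called lower in the knockouts in the model of all 6 groups. Fhl2 stood at 5424 at the lowest, 9053 at the median and 14374 at the highest of the IRS1KO TAC libraries, against 13918 at the lowest, 16023 at the median and 18113 at the highest of the IRS1KO sham libraries. In IRS2KO hearts Fhl2 had 7239.6 at the lowest, 13172 at the median and 24068 at the highest after TAC, against 19638 at the lowest, 21639 at the median and 24009 at the highest after sham. In WT hearts Fhl2 had 13955, 24619, 11931, 15504 and 15305 in TAC replicates 1, 2, 3, 5 and 6, against 20148 at the lowest, 21883 at the median and 24475 at the highest of the sham libraries. WT TAC replicate 2 stood above the other 4 and above every WT sham library, and the groups overlapped in each genotype. On the log2 scale TAC over sham gave -0.88 in IRS1KO hearts (SE 0.22, adjusted p = 0.000833), -0.68 in IRS2KO hearts (SE 0.22, adjusted p = 0.00845) and -0.48 in WT hearts (SE 0.23, adjusted p = 0.0774; limma). With only the WT TAC and sham groups fitted, Fhl2 was called lower in WT hearts too. With equal totals its call in IRS2KO hearts was lost (limma adjusted p = 0.0804).

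Alpha-actinin (Actn2), the crosslinker that defines the Z-disc, passed the test in no genotype. Actn2 stood at 20953 at the lowest, 27494 at the median and 37503 at the highest of the IRS1KO TAC libraries, against 26502 at the lowest, 28012 at the median and 29827 at the highest of the IRS1KO sham libraries. In IRS2KO hearts Actn2 had 25185 at the lowest, 30637 at the median and 35338 at the highest after TAC, against 28880.3 at the lowest, 30037 at the median and 30948 at the highest after sham. In WT hearts Actn2 had 30538, 35175, 24566, 30162 and 31132 in TAC replicates 1, 2, 3, 5 and 6, against 28825 at the lowest, 29036 at the median and 30098 at the highest of the sham libraries. The TAC libraries scattered around a narrow sham range. This came to a log2 fold change of -0.02 in IRS1KO hearts (SE 0.11, adjusted p = 0.887), -0.00 in IRS2KO hearts (SE 0.11, adjusted p = 0.978) and 0.05 in WT hearts (SE 0.11, adjusted p = 0.752; limma). With equal totals Actn2 was called higher in all 3 genotypes.

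Myopalladin (Mypn) and palladin (Palld), related scaffold proteins that bind alpha-actinin, also passed in no genotype. Mypn stood at 1759.8 at the lowest, 2196 at the median and 2609.9 at the highest of the IRS1KO TAC libraries, against 1570.5 at the lowest, 2062 at the median and 2427 at the highest of the IRS1KO sham libraries. In IRS2KO hearts Mypn had 2090.3 at the lowest, 2559.8 at the median and 2809.9 at the highest after TAC, against 2412 at the lowest, 2635 at the median and 2751 at the highest after sham. In WT hearts Mypn had 2219.9, 2745, 2032, 2176 and 2573 in TAC replicates 1, 2, 3, 5 and 6, against 2182 at the lowest, 2480.4 at the median and 2628 at the highest of the sham libraries. The groups overlapped throughout. Palld stood at 3809 at the lowest, 4053 at the median and 4803 at the highest of the IRS1KO TAC libraries, against 3157 at the lowest, 3886 at the median and 4031 at the highest of the IRS1KO sham libraries. In IRS2KO hearts Palld had 3692 at the lowest, 4096 at the median and 5017 at the highest after TAC, against 3241 at the lowest, 4046 at the median and 4269 at the highest after sham. In WT hearts Palld had 3130.4, 4263, 3902, 3438 and 4638 in TAC replicates 1, 2, 3, 5 and 6, against 3786 at the lowest, 4176 at the median and 4666 at the highest of the sham libraries. The TAC and sham libraries of Palld overlapped as well. The log2 fold changes were 0.12 in IRS1KO, -0.07 in IRS2KO and -0.07 in WT hearts for Mypn and 0.14 in IRS1KO, 0.13 in IRS2KO and -0.12 in WT hearts for Palld. With equal totals both were called higher in IRS1KO and IRS2KO hearts.

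The 3 genes of myosin assembly fell in the knockouts, and 2 of them in WT hearts. Unc45b, the chaperone that folds the myosin head, had log2 fold changes of -0.45 in IRS1KO, -0.20 in IRS2KO and -0.34 in WT hearts, and Trim54, the ubiquitin ligase MuRF3, had -0.62 in IRS1KO, -0.56 in IRS2KO and -0.45 in WT hearts. Smyd1, a methyltransferase needed for myosin assembly, had -0.51 in IRS1KO, -0.54 in IRS2KO and -0.32 in WT hearts. It did not pass in WT hearts in the model of all 6 groups (limma adjusted p = 0.147), but was called lower there with only the WT groups fitted. With equal totals Trim54 kept its calls in the knockouts, and no other call of this role remained. The Smyd1 span overlaps Krcc1 on the opposite strand.

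**Figure D3:**
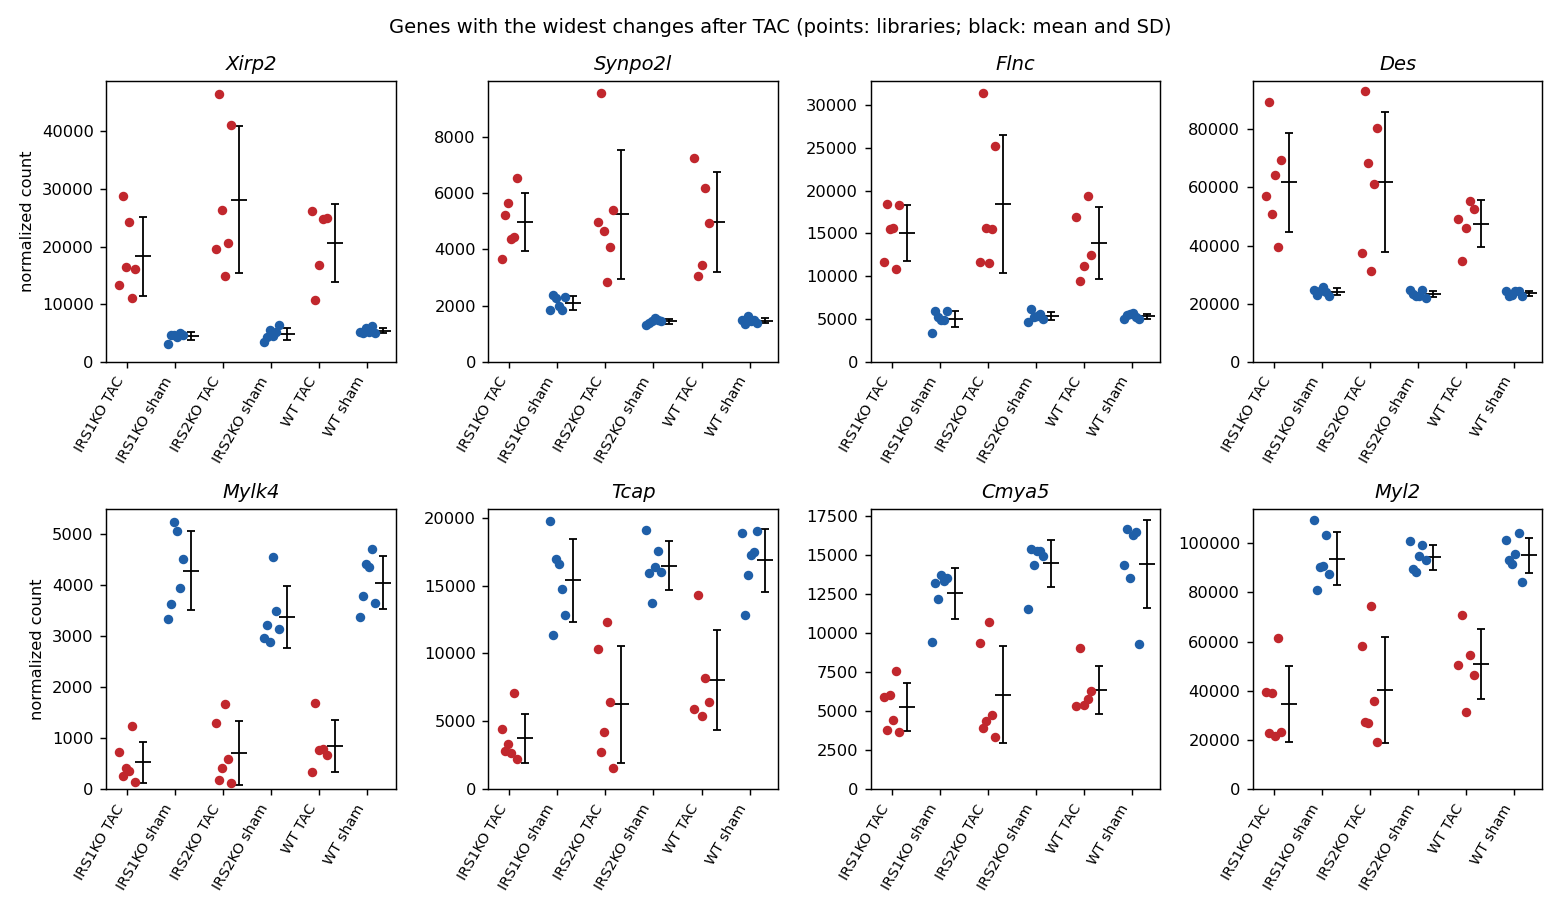
Normalized counts in each library (points; TAC red, sham blue) with the mean and SD of the group in black, on linear axes from 0, for the 4 genes of the widest rises (upper row) and the widest falls (lower row). Within a genotype, TAC and sham points do not overlap in any panel except Tcap in WT hearts, where 1 TAC library stands among the sham libraries.

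Other genes of the same structures, a list of 64 of which 63 were in the table and 59 were tested, gave 28 rises and 15 falls in IRS1KO, 29 and 15 in IRS2KO, and 25 and 15 in WT hearts, with median log2 fold changes of 0.24, 0.22 and 0.10 in the same order. The largest rises with a mean of at least 100 included Ankrd1, a titin-binding ankyrin repeat protein, with log2 fold changes of 1.92 in IRS1KO, 2.09 in IRS2KO and 2.18 in WT hearts, and Fhl1, a relative of Fhl2, with 2.29 in IRS1KO, 2.08 in IRS2KO and 2.11 in WT hearts. Fhl2 and Fhl1 thus changed in opposite directions in the knockouts. Skeletal alpha-actin (Acta1), an isoform of the fetal heart, had 1.85 in IRS1KO, 1.88 in IRS2KO and 1.84 in WT hearts. Mybpc2, Tpm2 and Myh7 also rose in each genotype. Mybpc2 had 1.00 in IRS1KO, 1.80 in IRS2KO and 2.00 in WT hearts, Tpm2 had 1.66 in IRS1KO, 1.40 in IRS2KO and 1.22 in WT hearts, and Myh7 (beta-myosin heavy chain) had 1.14 in IRS1KO, 1.81 in IRS2KO and 1.27 in WT hearts. The largest falls were Tmod4, with -2.00 in IRS1KO, -2.30 in IRS2KO and -2.01 in WT hearts, and Myh7b, with -2.77 in IRS1KO, -2.04 in IRS2KO and -1.63 in WT hearts. A further 4 genes fell in each genotype. Tnni3 (cardiac troponin I) had -1.47 in IRS1KO, -1.24 in IRS2KO and -0.89 in WT hearts, and Tnnt1 had -1.44 in IRS1KO, -1.33 in IRS2KO and -0.66 in WT hearts. Myh6 (alpha-myosin heavy chain) had -1.23 in IRS1KO, -1.01 in IRS2KO and -0.85 in WT hearts, and Fbxo32 (the ubiquitin ligase atrogin-1) had -0.68 in IRS1KO, -1.33 in IRS2KO and -0.73 in WT hearts. The calls of Tnnt1 in WT and Myh7 in IRS1KO hearts were lost without at least 1 library (highest limma adjusted p = 0.126 and 0.0628), and those of Tnnt1 in WT and Fbxo32 in IRS1KO hearts with equal totals (limma adjusted p = 0.106 and 0.0616).

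The TAC libraries of a group differed in how far these genes had moved. Of the 37 genes, 9 were higher and 12 lower without overlap between TAC and sham libraries in IRS1KO, 9 and 11 in IRS2KO, and 9 and 9 in WT hearts. Of all genes tested, 20.5% were higher and 16.7% lower without overlap in IRS1KO, 15.7% and 13.6% in IRS2KO, and 17.2% and 14.3% in WT hearts. In WT hearts replicate 2 was the TAC library nearest to sham for 24 of the 27 called genes, and replicate 1 was the farthest for 12. In IRS1KO hearts replicate 5 was nearest for 22 of 28 and replicate 2 farthest for 11. In IRS2KO hearts replicate 4 was nearest for 19 and replicate 1 for 8 of 29, and replicates 6 and 2 were farthest for 16 and 12. These nearest libraries were the same for Xirp2, which rose, and for Tcap, which fell. The mitochondrial share of reads went with this order at its near end and only in part at its far end. It was 23.6% in IRS1KO replicate 5, 28% in IRS2KO replicate 4 and 27% in WT replicate 2, each the highest of its TAC group, and 26.1% in IRS2KO replicate 1, the next highest. Among the farthest libraries it was 16.5% in IRS1KO replicate 2 and 15.6% in IRS2KO replicate 6, the lowest of their groups, 18.1% in IRS2KO replicate 2 and 22.6% in WT replicate 1. WT replicates 3 and 6 both had 21.8%, below replicate 1, and were farthest for 9 and 0 genes. IRS2KO replicate 3, farthest for 1 gene, also had 18.1%. The part of the mitochondrial share in the order was not tested.

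Within 4 pairs of related genes, picked after their values were seen, the members changed to a different extent in at least some genotypes. The log2 ratio of a pair within each library, which does not depend on the scaling, is given as a description with no test. The ratio of Mylk4 to Mylk3 averaged -3.59 ± 0.76 in IRS1KO TAC and -1.21 ± 0.26 in IRS1KO sham hearts (SD), a difference of -2.38 in IRS1KO, -1.71 in IRS2KO and -1.49 in WT hearts. For Xirp2 to Xirp1 the difference was 1.08 in IRS1KO, 1.44 in IRS2KO and 0.97 in WT hearts, and for Myom2 to Myom1 it was -0.79 in IRS1KO, -0.98 in IRS2KO and -0.72 in WT hearts. TAC and sham libraries did not overlap in these ratios, except for Myom2 to Myom1 in WT hearts. For Lmod3 to Lmod2 the difference was -1.15 in IRS1KO, -0.07 in IRS2KO and -0.53 in WT hearts. The libraries were without overlap in IRS1KO and WT hearts and overlapped in IRS2KO hearts, where both leiomodins fell. Other related genes moved together, as Myl2 and Myl3 did above.

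**Figure D4:**
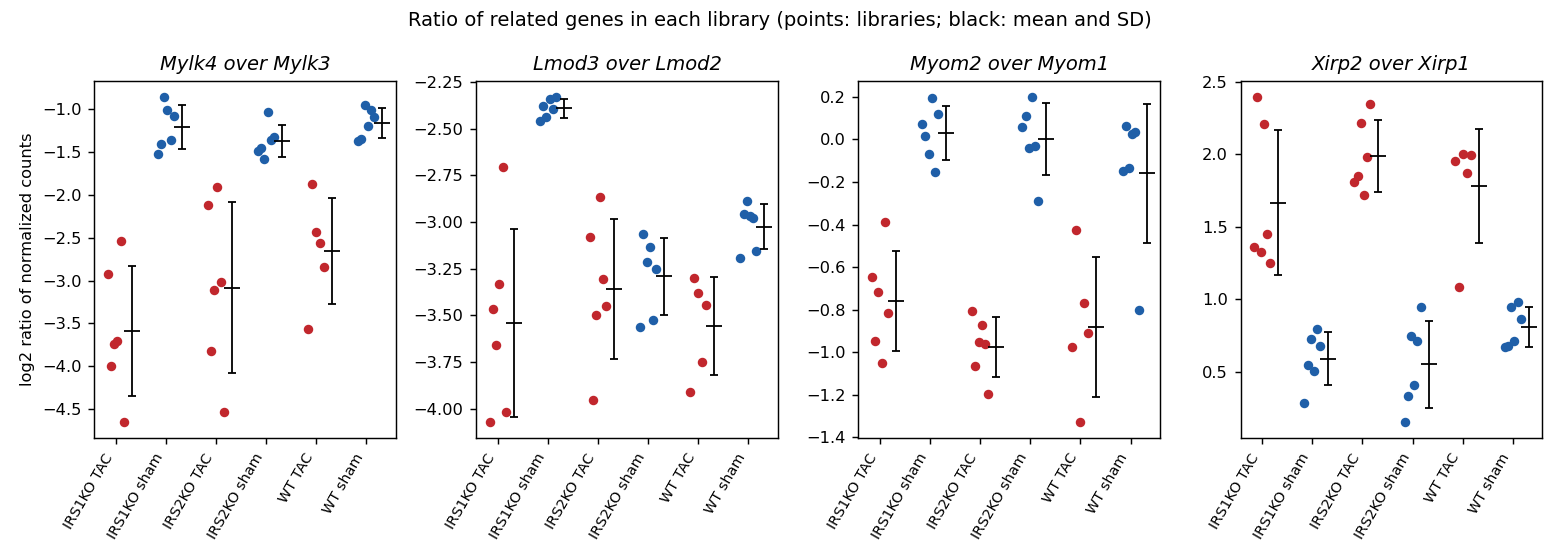
The log2 ratio of normalized counts of 4 pairs of related genes in each library (points; TAC red, sham blue), with the mean and SD of the group in black. The mean ratio is lower after TAC for Mylk4 over Mylk3 and Myom2 over Myom1 and higher for Xirp2 over Xirp1 in all 3 genotypes, while Lmod3 over Lmod2 overlaps between TAC and sham in IRS2KO hearts.

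The genotypes were then compared within sham hearts, to ask which of these genes differed between them without TAC. For IRS1KO against WT hearts the deletion, Cre and the floxed line cannot be told apart, nor can the deletion and the floxed line for IRS1KO against IRS2KO hearts. Hspb7 was the only 1 of the 37 called between IRS1KO and WT sham hearts (0 higher and 1 lower, against 2% of all genes higher and 2.65% lower). It had 24236 at the lowest, 26261 at the median and 29212 at the highest of the IRS1KO sham libraries, against 31292 at the lowest, 34754 at the median and 37585 at the highest of the IRS2KO sham libraries and 32197 at the lowest, 36220.3 at the median and 37022 at the highest of the WT sham libraries. Every IRS1KO sham library thus lay below every sham library of the other genotypes (log2 fold change -0.43, SE 0.09, adjusted p = 0.00223 against WT; log2 fold change -0.40, SE 0.09, adjusted p = 0.00377 against IRS2KO; limma). After TAC, Hspb7 had 42168 at the lowest, 45631 at the median and 49091 at the highest of the IRS1KO libraries, 48346 at the lowest, 52182 at the median and 68796 at the highest of the IRS2KO libraries, and 58383, 50922, 41713, 58511 and 47812 in WT replicates 1, 2, 3, 5 and 6. The groups overlapped there, and IRS1KO was not called against WT (adjusted p = 0.344, limma).

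Against IRS2KO sham hearts, 0 of the 37 were higher and 2 lower in IRS1KO sham hearts (3.67% and 4.64% of all genes), the other being Mypn. Its log2 fold change was -0.36 (SE 0.10, adjusted p = 0.0153, limma), and its libraries, given above, overlapped. The call was lost with equal totals (limma adjusted p = 0.072) and without IRS1KO sham replicate 1, the lowest of its group (adjusted p = 0.0552). Between IRS2KO and WT sham hearts 0 of the 37 were called by limma, edgeR or DESeq2, and limma called 0% of all genes. An unadjusted p under 0.05 (limma) was found for 1 of the 37 and for 534 of the 13695 genes tested.

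Further genes separated IRS1KO sham hearts from both other genotypes without overlap, though they did not pass in the model of all 6 groups. Lmod3 stood at 1552 to 1891 in IRS1KO, 1017 to 1282 in IRS2KO and 959 to 1290.5 in WT sham libraries. Synpo2l stood at 1825 to 2358 in IRS1KO, 1317 to 1540.5 in IRS2KO and 1344 to 1616 in WT sham libraries. Both were thus higher in each IRS1KO library than in any other sham library, while Fhl2, Cryab and Smyd1 were lower in each. Fhl2 stood at 13918 to 18113 in IRS1KO, 19638 to 24009 in IRS2KO and 20148 to 24475 in WT sham libraries. Cryab stood at 10892 to 14732 in IRS1KO, 15264 to 17211 in IRS2KO and 16499.6 to 17559 in WT sham libraries. Smyd1 stood at 6307 to 6978 in IRS1KO, 8267 to 9814 in IRS2KO and 8076 to 9276 in WT sham libraries. The adjusted p against WT in the model of all 6 groups was 0.116 for Lmod3, 0.13 for Synpo2l, 0.297 for Fhl2, 0.164 for Cryab and 0.241 for Smyd1 (limma). In all, 2 of the 37 were higher and 4 lower without overlap against WT (2.34% and 3.45% of all genes), and 3 higher and 5 lower against IRS2KO (3.1% and 4.72%).

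The model of all 6 groups shares 1 estimate of the spread, and the SE of Lmod3 against WT was 0.20 in it and 0.07 with only the compared sham groups fitted (log2 scale). In that smaller fit 2 of the 37 were higher (Lmod3 and Synpo2l) and 6 lower (Cryab, Fhl2, Hspb7, Mypn, Smyd1 and Trim54) in IRS1KO against WT hearts, where 4.86% of all genes were higher and 5.97% lower. Against IRS2KO hearts 3 were higher (Lmod3, Mylk3 and Synpo2l) and 7 lower (Cryab, Fhl2, Hspb7, Lmod2, Mybpc3, Mypn and Smyd1), against 6.73% and 8.95% of all genes. The adjusted p against WT in it was 3.2e-05 for Lmod3, 8.54e-05 for Synpo2l, 7.37e-05 for Fhl2 and 2.84e-05 for Smyd1 (limma). The summed level of skeletal muscle markers was 151 to 295 in IRS1KO, 91.6 to 126 in IRS2KO and 93.1 to 115 in WT sham libraries, and that of cardiomyocyte markers 1023880 to 1135340, 1026550 to 1113030 and 1031230 to 1154560 in the same order. Of 6 atrial markers, Nppa, the natriuretic peptide that ventricles also make under load, averaged 4045 in IRS1KO, 888 in IRS2KO and 594 in WT sham hearts, while Myl7, Sln and Bmp10 averaged under 10 in IRS1KO sham hearts. The part of these markers in the differences was not tested.

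**Figure D5:**
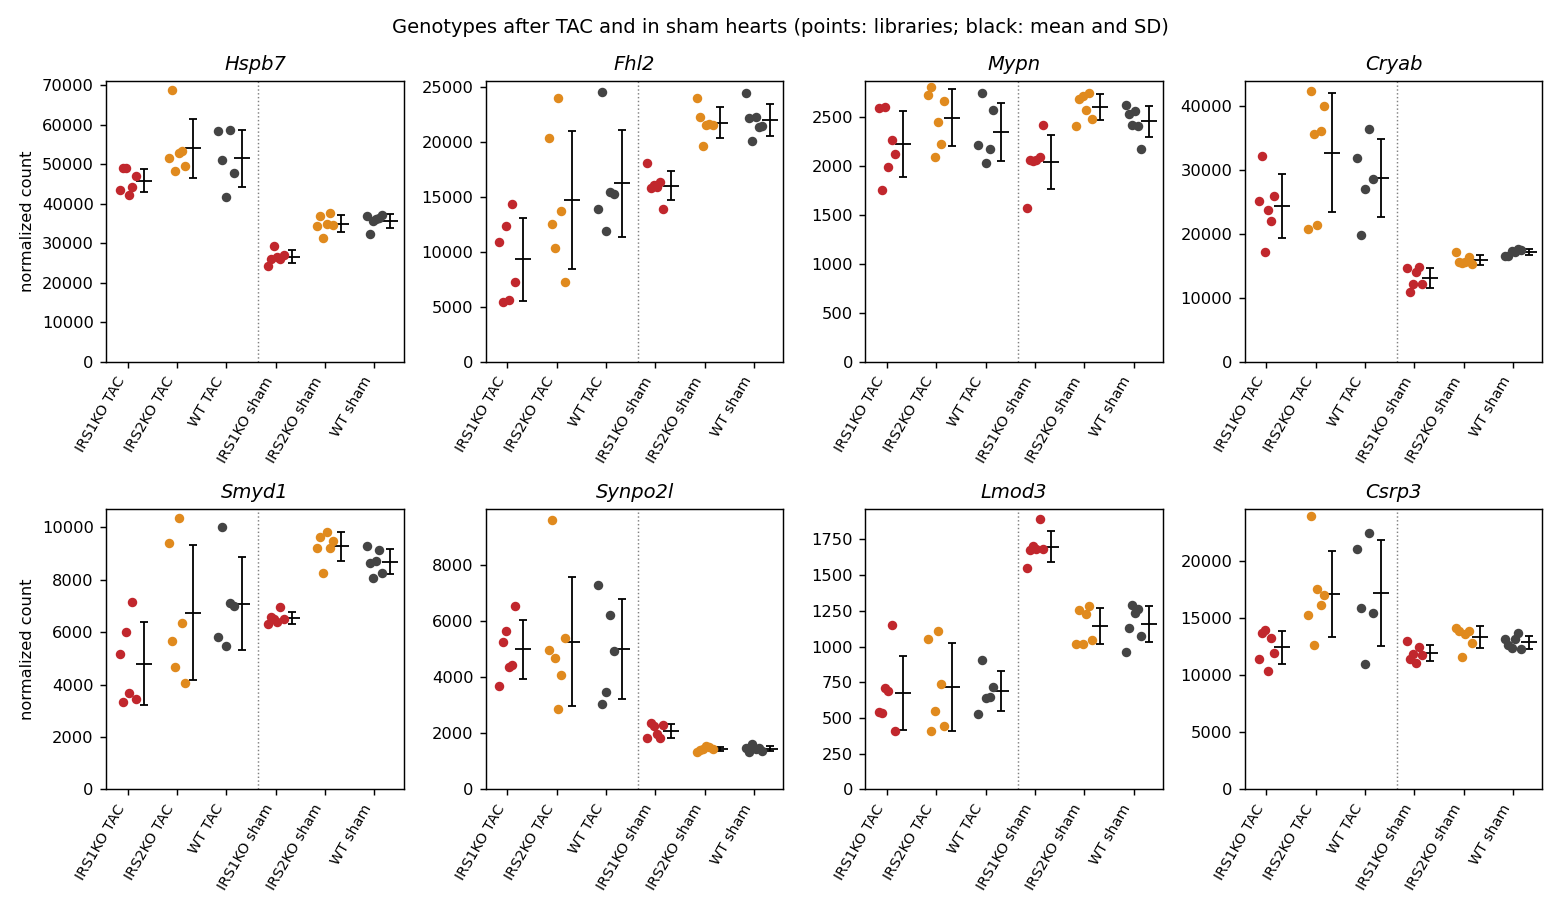
Normalized counts in each library (points; IRS1KO red, IRS2KO orange, WT dark grey) with the mean and SD of the group in black, on linear axes from 0, after TAC left of the dotted line and in sham hearts right of it. In sham hearts the IRS1KO points of Hspb7, Fhl2, Cryab and Smyd1 lie below, and those of Synpo2l and Lmod3 above, the points of both other genotypes, whereas after TAC the genotypes overlap in all 8 panels.

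After TAC, Fhl2 was the only 1 of the 37 called between IRS1KO and WT hearts (0 higher and 1 lower, against 2.02% and 2.68% of all genes). It averaged 9320 ± 3755 in IRS1KO TAC, 14736 ± 6319.8 in IRS2KO TAC and 16263 ± 4884 in WT TAC hearts (SD), and the libraries overlapped (log2 fold change -0.86, SE 0.23, adjusted p = 0.0244 against WT; limma). The call was lost when only these groups were fitted (limma adjusted p = 0.176), and without WT TAC replicate 2 or 5 or IRS1KO TAC replicate 2, 4 or 6 (adjusted p = 0.114, 0.0516, 0.0879, 0.0833 and 0.0599). Tcap (log2 fold change -1.12, SE 0.34, adjusted p = 0.0527) and Csrp3 (log2 fold change -0.43, SE 0.13, adjusted p = 0.0587) came near the threshold (limma). DESeq2 called 5 lower (Csrp3, Fhl2, Smyd1, Tcap and Trim54; 3.72% of all genes) and edgeR 4 (all but Smyd1; 2.99%). Without IRS1KO TAC replicate 5, 7 were lower, and without WT TAC replicate 3, 6 were. The share of all genes called in these fits is not given here, so the larger counts are not shown to be particular to the 37 genes. IRS1KO TAC replicate 5 had the highest Irs1 value of its group (80.3). It was also the library of its group nearest to sham for 22 of 28 called genes. The part of either in this count was not tested. Skeletal muscle markers summed to 231 to 332 in IRS1KO TAC and 118 to 168 in WT TAC libraries, Nppa averaged 19972 in IRS1KO TAC and 8452 in WT TAC hearts, and their part and that of the cardiomyocyte markers given above was not tested.

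Between IRS2KO and WT TAC hearts limma called 0 of the 37, and edgeR and DESeq2 also called 0 (0% of all genes with each tool). With limma 2 of the 37 had an unadjusted p under 0.05, as did 931 of the 13695 genes tested. Between IRS1KO and IRS2KO TAC hearts limma called 0 (1.08% of all genes were higher and 1.28% lower). Here 8 of the 37 and 1686 of all genes tested had an unadjusted p under 0.05 (limma). Csrp3 was closest, at 12463 ± 1429 in IRS1KO TAC and 17116 ± 3764 in IRS2KO TAC hearts (log2 fold change -0.44, SE 0.13, adjusted p = 0.0604; limma), and was called by edgeR (adjusted p = 0.0349) and DESeq2 (adjusted p = 0.0111).

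Finally the response to TAC was compared between genotypes through the interaction terms. For IRS1KO minus WT, 0 of the 37 passed with limma, edgeR or DESeq2, against 0.0365% of all genes higher and 0.073% lower with limma. An unadjusted p under 0.05 (limma) was found for 3 of the 37 and for 1216 of the 13695 genes tested, a similar share. The 3 were Lmod3 (difference -0.64 on the log2 scale, SE 0.29, limma adjusted p = 0.519), Tcap (-0.97, SE 0.47, adjusted p = 0.56) and Hspb7 (0.27, SE 0.13, adjusted p = 0.56). For IRS2KO minus WT, 0 passed with any of the 3 tools (0% of all genes with limma). Of the 37, Lmod2 alone had an unadjusted p under 0.05 (difference -0.47, SE 0.17, limma adjusted p = 0.812), as did 713 of the 13695 genes tested. A gene called in 1 genotype and not in another, such as Tpm1 or Lmod2, is therefore not shown to differ between them.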

How the data were processed

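RNA-seq of 35 mouse heart libraries was deposited as 1 table. Each value is a signal made by the authors, the reads of a gene divided by a scaling factor of its library; after division by the smallest value above 0 of the library, 100% of values came out whole within a tolerance of 0.001, which gave back the reads. The submitters' processing notes name HISAT2 2.0.6, HTSeq 0.7.1, DESeq2 and the build GRCm38, and the annotation and the strand setting of the counting are not given in the sources used here. Of 27012 gene IDs, 26886 had a symbol, and positions and exon lengths are from GENCODE M21 (GRCm38).

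Genes with a mean of at least 10 were tested (13695, all 37 members among them) with limma 3.58.1 in R 4.3.3 on log2(value + 1), with trend and robust settings, in 1 model over the 6 groups with 11 contrasts and Benjamini-Hochberg adjustment within each over all genes tested. A fold change on the log2(value + 1) scale understates the change of genes at low values. Alternatives were a pseudocount of 5, no filter on low values, equal totals per library, the replicate number as a block, a fit of only the compared groups, the recovered reads tested with DESeq2 1.42.0 or edgeR 4.0.16, and each library left out. Equal totals of nuclear reads, and both IRS1KO libraries with Irs1 at 0 left out, were added after the data were seen. The limma step was tested on simulated data. No library pair of a group agreed within counting noise (85 pairs, lowest chi-square per degree of freedom 2.42).

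The members, their grouping by role, the list of other sarcomere genes and the marker lists (cardiomyocyte, fibroblast, smooth muscle and pericyte, endothelial, macrophage and monocyte, neutrophil, skeletal muscle, atrial) were chosen with earlier results of these data known. Members with the 3 largest rises or falls after TAC in a genotype, called between genotypes, or called after TAC in none are given in full. From the other sarcomere genes the 4 largest called rises and falls with a mean of at least 100 are named.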

Additional observations from a re-analysis of the deposited data

Results flagged for a closer look

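Single libraries stood apart from the rest of their group, by Dixon's test, in 13 of 222 group values of the 37 genes, where chance gives about 1 in 20. The number found is near that share, so no single value here is shown to be more than a chance extreme. Of these, 3 fell in IRS1KO sham replicate 1, a library with Irs1 listed at 0. Its Cmya5 count of 9397 lay below the next of 12152, its Palld count of 3157 below the next of 3718, and its Myoz2 count of 18226 above the next of 14913.

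In WT TAC replicate 2, the WT TAC library nearest to sham for most called genes, Fhl2 stood at 24619 against a next value of 15504, and Cmya5 at 9051 against 6260, both above their group. Tnnc1 in WT TAC replicate 3 was low at 17036, with the next at 25416. In IRS2KO TAC replicate 2 Hspb7 was high at 68796, with the next at 53223.

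Among IRS2KO sham libraries, Mylk4 was high in replicate 4 (4547, next 3492) and Cmya5 low in replicate 1 (11515, next 14348). In WT sham replicate 6, Myom2 was low at 13273 (next 22622) and Ldb3 at 13491 (next 14906). Hspb7 in WT sham replicate 2 was low at 32197 (next 35667), and Actn2 in WT sham replicate 3 was high at 30098 (next 29118), within a narrow group. The cause of these values was not tested.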

How the results depend on the processing

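Of 88 member calls over all contrasts, 60 kept their direction and their side of the threshold under every alternative and with any library left out; a pseudocount of 5 and DESeq2 lost none of them. Equal totals per library moved the most: the members that fell after TAC were then 11 in IRS1KO, 11 in IRS2KO and 9 in WT hearts, and 20 of the 88 calls were lost with their direction kept. A further 5 called falls turned round, Tmod1 to 0.087 in IRS1KO and 0.041 in WT hearts, Mybpc3 to 0.025 and Nexn to 0.069 in IRS1KO hearts, and Unc45b to 0.14 in IRS2KO hearts, none of them called. The same scaling gave 1 member higher for IRS1KO against WT in sham, where 396 of the 13695 genes tested were higher. For IRS1KO against IRS2KO in sham it gave 2 higher and 1 lower, against 780 and 318 of all genes tested. For IRS1KO against WT after TAC it gave 3 lower, against 283 of all genes tested. With equal totals of nuclear reads, 1 member was higher in IRS1KO sham hearts against WT and 1 against IRS2KO, where 380 and 655 of all genes tested were. In IRS1KO against WT after TAC 4 members were then lower, against 333 of all genes tested, and 11 of the 88 calls were lost. With only the compared groups fitted, IRS1KO against WT in sham gave 2 higher and 6 lower, IRS1KO against IRS2KO in sham 3 higher and 7 lower, and IRS1KO against WT after TAC 0 lower. IRS1KO against WT after TAC gave 4 lower with edgeR and 5 with DESeq2, against 409 and 509 of all genes tested. IRS1KO against IRS2KO after TAC gave 1 lower with each, against 206 and 256 of all genes tested.

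With each library left out in turn, 9 members rose and 17 to 21 fell after TAC in IRS1KO, 9 to 10 rose and 18 to 21 fell in IRS2KO, and 9 to 10 rose and 13 to 19 fell in WT hearts. For IRS1KO against IRS2KO in sham 1 to 2 were lower, for IRS1KO against WT after TAC 0 to 7, and for IRS1KO against IRS2KO after TAC 0 to 1. The shares of all genes called with a library left out are not given here. Groups share replicate numbers in the labels, which name no pairs, and the main model took none. The deviations of same-numbered TAC and sham libraries of a genotype correlated over 0.1 in 8 of 17 pairs (range -0.08 to 0.21). Of 34 libraries 16 correlated best with their own number, which is more than random matching would give. What same-numbered libraries have in common was not tested. With the replicate number as a block, 4 members were lower in IRS1KO against WT after TAC and 1 in IRS1KO against IRS2KO after TAC, and no other count moved by over 1.5 times. The share of all genes called with this block is not given here, so these counts have no background beside them. Each of the 37 genes had reads in every library, and libraries of a group differed by more than counting noise.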

Other observations

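Among the 59 tested genes of the same structures outside the 37, few separated the genotypes, and they were picked here after their values were seen. Myl1, the essential light chain of fast skeletal muscle and of the embryonic heart, averaged 319.8 in IRS1KO TAC, 727 in IRS2KO TAC and 864 in WT TAC hearts, and no IRS1KO TAC library reached a library of either other group (log2 fold change -1.40, SE 0.20, limma adjusted p = 1.65e-05 against WT; -1.17 and 0.000148 against IRS2KO). Myotilin (Myot), a Z-disc protein that binds alpha-actinin, averaged 272 in IRS1KO TAC and 649 in WT TAC hearts (log2 fold change -1.25, SE 0.27, limma adjusted p = 0.00408). In sham hearts Myot averaged 348 in IRS1KO and 626 in WT libraries without overlap, and its call there (limma adjusted p = 0.0431) did not hold with every library left out (highest 0.137). Trim55, the ubiquitin ligase MuRF2, averaged 1143 in IRS1KO TAC and 1508 in WT TAC hearts (log2 fold change -0.42, SE 0.11, limma adjusted p = 0.0228), and its call too was lost without at least 1 library (highest 0.0928). Synaptopodin (Synpo), a relative of Synpo2l, averaged 1694 in IRS1KO sham and 2047 in WT sham hearts (log2 fold change -0.27, SE 0.07, limma adjusted p = 0.00929). Mybpc2 averaged 299 in IRS1KO sham and 187 in WT sham hearts (log2 fold change 0.70, SE 0.19, limma adjusted p = 0.02; highest 0.0721 with a library left out).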
